A study of Homo sapiens with 12 samples.

Results

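The matrix metalloproteinase (MMP) genes MMP1, MMP2, MMP7, MMP8, MMP9, MMP10, MMP12, MMP14, MMP19 and MMP28 were followed in tumor-associated macrophages (TAMs), as 10 of the 58735 genes of the deposited table, taken by gene name. The TAMs were THP-1 cells, a human monocytic leukemia line, turned into macrophages with PMA and then grown in a shared medium, on the other side of a Transwell filter, with AsPC-1 cells, a human pancreatic carcinoma line. In the control group (NC in the labels) the AsPC-1 cells carried an empty vector, and in the OE-MMP28 group (OE) they overexpressed MMP28. In the other two groups the same OE-MMP28 coculture received a neutralizing antibody to IL-8 (labelled anti_IL_8) or to VEGFA (labelled anti_VEGFA). Each of the 4 groups held 3 RNA-seq libraries of the THP-1 cells. The labels do not say whether the 3 libraries of a group came from separate cultures, so the p-values measure the spread between these libraries, which may be technical. Every group is 1 line of macrophages with 1 line of cancer cells, and no group is named for a control antibody.

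MMPs are zinc endopeptidases that are made as inactive proenzymes, are activated when the propeptide is removed, and are held in check by the tissue inhibitors of metalloproteinases (TIMPs). Collagenases (MMP1, MMP8) cut fibrillar collagen, gelatinases (MMP2, MMP9) cut denatured collagen and basement membrane collagen, and the stromelysin MMP10 and the matrilysin MMP7 act on many matrix proteins and on other proenzymes. MMP14 is anchored in the plasma membrane and activates the MMP2 proenzyme, MMP12 is the macrophage elastase, and MMP28 (epilysin) is the protease that was overexpressed in the cancer cells. Macrophages are a main source of several of these enzymes in tumors.

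MMP1, MMP7, MMP8, MMP10 and MMP12 lie together on chromosome 11 in a stretch of 435 kb that holds 9 MMP genes, all on the minus strand. In the coordinates of the deposited table (GRCh38), MMP7 is at chr11:102520508-102530753, MMP8 at chr11:102711795-102727050, MMP10 at chr11:102770503-102780628, MMP1 at chr11:102789920-102798160 and MMP12 at chr11:102862736-102875034. MMP14 is at chr14:22836557-22849027, MMP9 at chr20:46008908-46016561, MMP2 at chr16:55389700-55506691, MMP19 at chr12:55835433-55842966 and MMP28 at chr17:35756249-35795707. No exon base of MMP7, MMP8, MMP10, MMP12, MMP14 or MMP28 is shared with another annotated gene. MMP9 shares 18.4% of its exon bases with a gene of the opposite strand, MMP19 17.4%, MMP1 7.6%, and MMP2 shares 3.5% with a gene of the same strand. Whether the counting used strand is not stated in the sources used here, so reads in those stretches could belong to either gene.

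The promoters of MMP10 and MMP7 are shown because these genes of 1 locus gave the largest rise and the largest fall against control among the tested members. RefSeq (GRCh38.p14) promoter entries matched 4 of the 10 members, MMP7, MMP8, MMP10 and MMP14. The 110 bases from 120 to 11 bases before the start of transcription are given 5′ to 3′ on the minus strand, for MMP10 at chr11:102780639-102780748 and for MMP7 at chr11:102530758-102530867. Capitals mark matches to TGANTCA, the letters bound by AP-1 factors, and to TATAAA, the TATA box.
MMP10: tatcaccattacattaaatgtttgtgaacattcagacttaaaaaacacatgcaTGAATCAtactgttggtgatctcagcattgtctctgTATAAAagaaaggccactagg
MMP7: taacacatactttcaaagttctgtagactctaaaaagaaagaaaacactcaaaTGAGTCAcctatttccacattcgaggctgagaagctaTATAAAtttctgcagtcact
Both windows hold the AP-1 letters from -67 to -61 and a TATA box that begins at -31 in MMP10 and at -30 in MMP7. Over both strands of the 250 bases before the start, 6.57% of 35116 promoters hold TGANTCA and 10.7% hold TATAAA. The 250 bases of MMP8, a gene of the same locus, and those of MMP14 do not hold TGANTCA. For MMP8 the RefSeq start lies inside the gene span of the deposited table, and TATAAA is at -110 to -105. Its 250 bases therefore need not lie upstream of the start given in that table. The ETS letters AGGAAG, which 28.7% of promoters hold, occur at 2 places in the 250 bases of MMP7 and not in those of MMP10. Both places, -169 to -164 and -145 to -140 on the opposite strand, are upstream of the bases shown. These are matches of letters and no measure of binding.

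Library totals were 15852346 to 18701195 counts, and mitochondrial genes took 6.92% to 17.8% of them, most in anti-VEGFA replicate 2 (17.8%) and OE-MMP28 replicate 3 (12.3%). Levels are given as CPM, a gene's share of the library's counts on a common scale after TMM adjustment, on which 3 counts, the smallest amount taken as detected, correspond to 0.160 to 0.194. These limits cover counting error only. The 12 macrophage markers summed to 2810 to 3080 CPM in control and 3190 to 4440 CPM in the other libraries. Of the 11 tested markers, CD14 alone was called higher in OE-MMP28 (649.5 to 819.7 CPM in control, 932 to 1769 CPM there). The fitted difference from control was above 0 for 7 of the 11 in OE-MMP28, 6 under anti-IL-8 and 3 under anti-VEGFA. PTPRC, for example, had a mean of 60.55 CPM in control, 50.65 in OE-MMP28, 36.56 under anti-IL-8 and 48.47 under anti-VEGFA. The defining marker CD68 had at most 5 counts, and 85.8% of its exon bases are shared with other genes. The 12 epithelial markers of the cancer cells summed to 4.79 to 5.85 CPM in control, 2.64 to 3.49 CPM in OE-MMP28 and 3.5 to 4.95 CPM in the antibody groups, with EPCAM, KRT17 and KRT6A at 0 counts in every library. The 8 fibroblast markers summed to 29.9 to 34.2 CPM in control and 17.1 to 26.2 CPM elsewhere, mostly from FAP. The part of these marker differences in the results that follow was not tested.

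Per unit of transcript length, the MMP repertoire of these TAMs was led by 3 genes. Over all 12 libraries the mean FPKM was 791 for MMP14 (496 to 1216), 599 for MMP7 (394 to 867) and 242 for MMP9 (142 to 367). Together these made up 92.8% to 96.5% of the summed FPKM of 24 MMP rows. Among the members, MMP1 followed at 55.2 (32.9 to 82.0), then MMP8 at 11.0 (7.43 to 15.1), MMP19 at 7.06 (5.57 to 9.82), MMP2 at 3.54 (2.61 to 4.89) and MMP10 at 2.79 (1.14 to 4.01). Neighbours in this order of members overlapped in their ranges for MMP14 and MMP7, for MMP8 and MMP19, and for MMP2 and MMP10, and did not overlap elsewhere in the order. MMP3, which is not a member, had a mean of 6.53 FPKM (4.40 to 8.98), and its range overlapped those of MMP19 and MMP2. MMP10, the gene with the largest fold change, was the least abundant of the 8 detected members in control, and with anti-VEGFA its mean of 3.61 FPKM was beside 3.43 for MMP2.

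**Figure D1:**
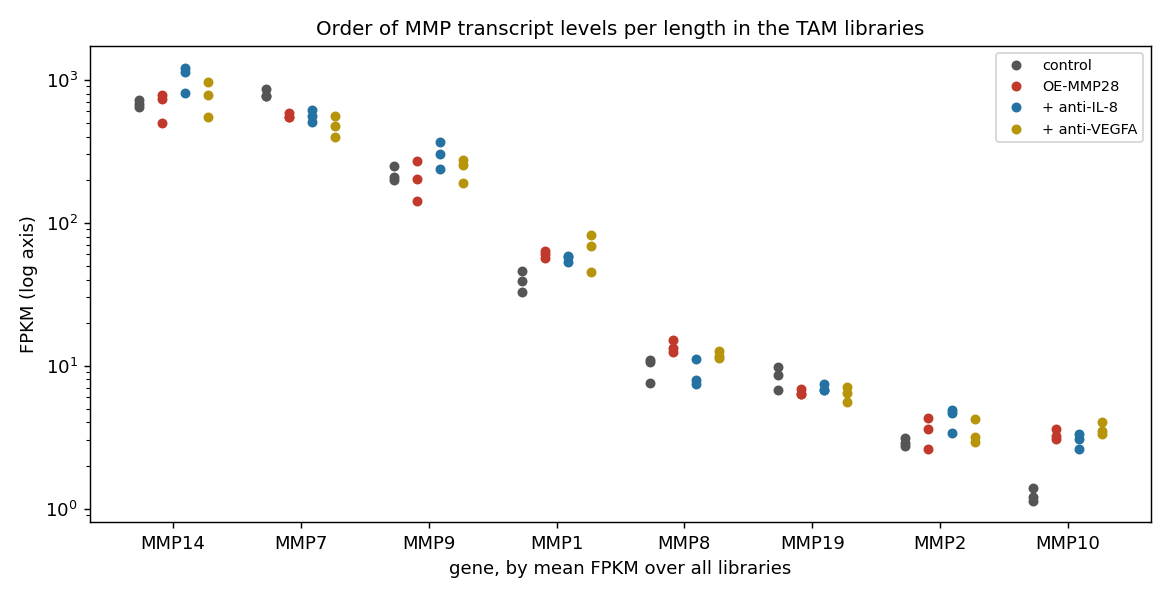
FPKM of the 8 detected members (log axis) in each of the 12 libraries, one point per library, coloured by group and ordered by the mean over all libraries. MMP14, MMP7 and MMP9 lie above 140 FPKM in every library, and MMP10 in control is the lowest set of points, between 1.14 and 1.39.

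The overexpressed gene was not seen in the macrophages. MMP28 had 0 counts in each of the 12 libraries, which at this depth allows up to 0.160 to 0.194 CPM. MMP12, the macrophage elastase, had 0 to 5 counts per library and 25 in all, with control libraries at 4, 1 and 1 and OE-MMP28 libraries at 1, 2 and 0. These levels are at or near the 3-count limit, and no comparison was made for either gene. The other 8 members passed the filter on low counts.

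Between OE-MMP28 and control TAMs, the comparison that asks what MMP28 in the cancer cells does to the macrophages, MMP10 was the member that rose. Of the 8 members tested, 1 was called at an adjusted p under 0.05 (edgeR's quasi-likelihood test, Benjamini-Hochberg over 16046 genes), against 3.16% of all genes tested, of which 0.523% were higher and 2.64% lower. The libraries of the groups did not overlap for 4 of the 8 members, with MMP10, MMP1 and MMP8 higher and MMP7 lower, against 21.3% of all genes (9.63% higher and 11.6% lower). The median log2 fold change of the 8 was 0.13, beside 0.02 over all genes. In these bulk samples fewer cells of a type and less RNA per cell cannot be told apart.

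MMP10 had 36, 35 and 42 counts in the control libraries and 104, 109 and 87 in OE-MMP28. On the CPM scale this was 2.12, 2.02 and 2.48 against 5.71, 6.37 and 5.42, so that the lowest OE-MMP28 library was above the highest control by more than the range of either group. The fold was 2.64 (log2 fold change 1.40, SE 0.20, 95% interval 0.99 to 1.81, edgeR adjusted p = 1.6e-04), higher in 3 of 3 libraries. The increase stayed with both antibodies. With anti-IL-8 the counts were 92, 79 and 83 (5.91, 4.68 and 5.38 CPM), and with anti-VEGFA they were 105, 93 and 134 (6.23, 5.90 and 7.14 CPM). Against control these were 2.41-fold (log2 1.27, SE 0.20, edgeR adjusted p = 4.0e-04) and 2.91-fold (log2 1.54, SE 0.19, edgeR adjusted p = 4.6e-05), and these comparisons share the control libraries. MMP10 was called in each of the 3 comparisons with control in every one of the 12 fits that left out 1 library. Its neighbour MMP3, the other stromelysin of the locus, had 159 to 246 counts in control and 233 to 280 in OE-MMP28, with overlapping groups (log2 fold change 0.35, SE 0.21, edgeR adjusted p = 0.50).

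The genes whose log2 CPM followed MMP10 most closely over the 12 libraries, among tested protein-coding genes, were CTSK (Pearson r 0.914), which encodes the collagen-cutting cysteine protease cathepsin K, MSMO1 (0.906), a sterol synthesis enzyme, and CCNE1 (0.906), which encodes cyclin E1. The points share the step between control and the other groups, so these values describe the libraries and are no test.

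**Figure D2:**
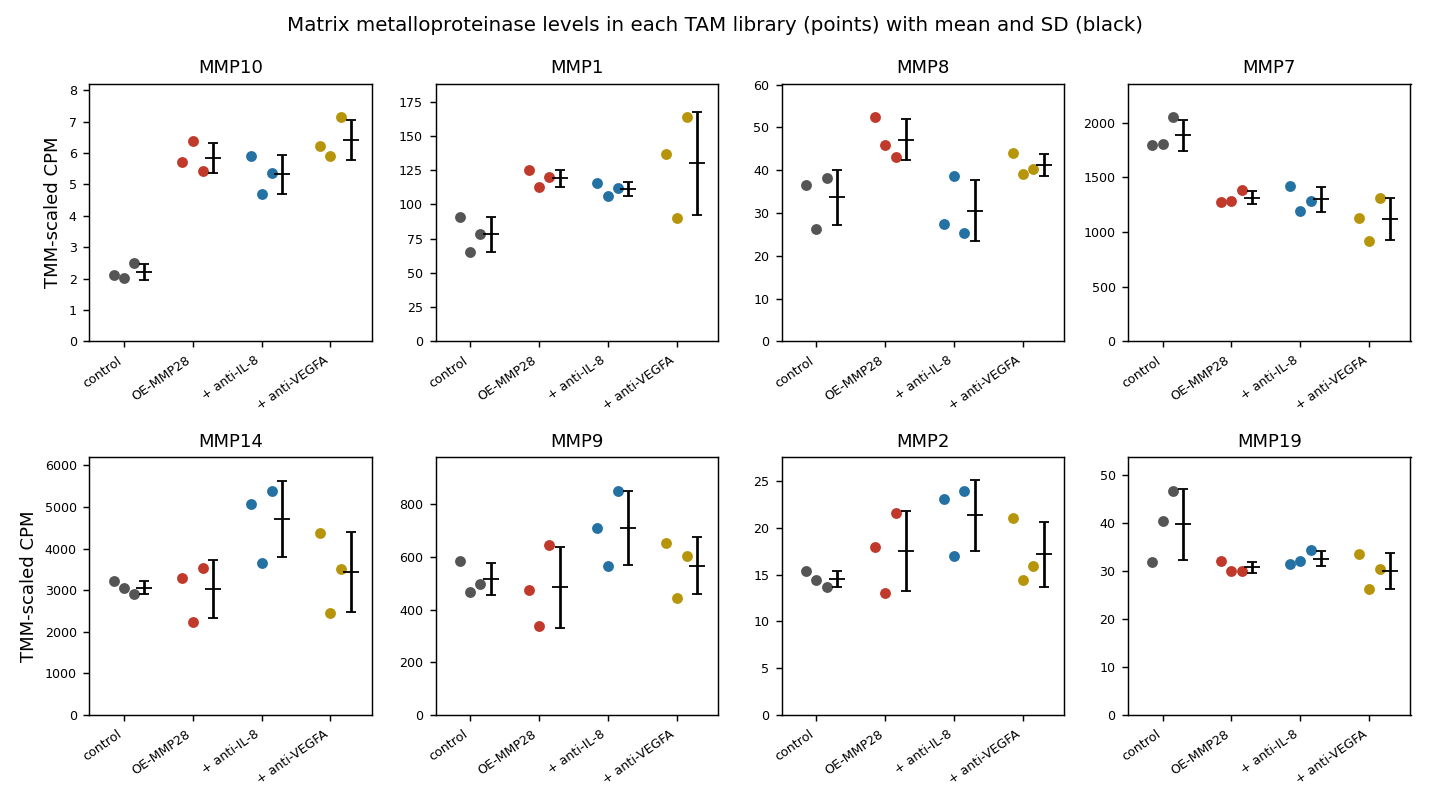
TMM-scaled CPM of the 8 tested members in each library, one point per library, with the group mean and SD in black beside the points; every vertical axis starts at 0. For MMP10 the control points lie at 2.02 to 2.48 and all others at 4.68 or above; for MMP7 the control points lie above all others.

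The collagenase MMP1 stood at 90.7, 65.4 and 78.7 CPM in control and 125, 112 and 120 CPM in OE-MMP28. All OE-MMP28 libraries were above all control libraries (log2 fold change 0.61, SE 0.17, 95% interval 0.24 to 0.97), and the difference missed the threshold after adjustment (edgeR adjusted p = 0.068). DESeq2 gave 0.61 with an adjusted p of 0.025. The anti-IL-8 libraries had 116, 106 and 112 CPM (against control log2 fold change 0.51, SE 0.17, edgeR adjusted p = 0.045), and the anti-VEGFA libraries had 137, 89.8 and 164 CPM (0.73, SE 0.17, edgeR adjusted p = 0.012). MMP1 thus rose against control with both antibodies, but anti-VEGFA replicate 2, at 89.8 CPM, lay just under the highest control library at 90.7. The anti-IL-8 call was lost in 6 of the 12 fits that left out 1 library (control replicate 2 or 3, OE-MMP28 replicate 1 or any anti-IL-8 library), with an adjusted p of up to 0.19, and with library totals or FPKM. The anti-VEGFA call was lost without control replicate 2 (adjusted p = 0.086) and without anti-VEGFA replicate 3 (0.066).

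MMP8, the collagenase best known from neutrophils, had 36.6, 26.3 and 38.1 CPM in control and 52.4, 46.0 and 43.1 CPM in OE-MMP28. The groups did not overlap, and the log2 fold change was 0.48 (SE 0.17, edgeR adjusted p = 0.15). With anti-IL-8 its libraries were at 27.5, 38.7 and 25.3 CPM, all below OE-MMP28 and overlapping control. The log2 fold change against OE-MMP28 was -0.63 (SE 0.17, 95% interval -0.98 to -0.27, edgeR adjusted p = 0.063). With anti-VEGFA the libraries were at 44.0, 39.1 and 40.4 CPM, above control and overlapping OE-MMP28. MMP8 was the member with the smallest p between anti-IL-8 and OE-MMP28, and it has the lowest transcript GC content of the 8 tested members (41.1%). With offsets for GC content and length, an alternative chosen after seeing the data, the difference of anti-IL-8 from OE-MMP28 was -0.34 (edgeR adjusted p = 0.44).

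MMP7 (matrilysin), among the most abundant MMPs of these cells, was lower wherever the cancer cells overexpressed MMP28. Control libraries had 1799, 1807 and 2051 CPM and OE-MMP28 libraries 1277, 1281 and 1387 CPM, with no overlap. The log2 fold change was -0.52 (SE 0.14, 95% interval -0.82 to -0.22, edgeR adjusted p = 0.056), just outside the threshold. With anti-IL-8 the libraries had 1421, 1192 and 1288 CPM and with anti-VEGFA 1126, 922 and 1309 CPM, again all below control. In these groups MMP7 fell against control by 0.54 on the log2 scale (SE 0.14, edgeR adjusted p = 0.015) and by 0.75 (SE 0.14, edgeR adjusted p = 0.0029). In the OE-MMP28 comparison MMP7 was called lower by DESeq2 (adjusted p = 0.0060) and by voom (adjusted p = 0.041). The anti-VEGFA call stood in each of the 12 fits that left out 1 library. The anti-IL-8 call was lost without control replicate 3 (adjusted p = 0.077), without anti-IL-8 replicate 2 (0.054) or 3 (0.063), and with the GC and length offsets (log2 fold change -0.37, edgeR adjusted p = 0.11).

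**Figure D3:**
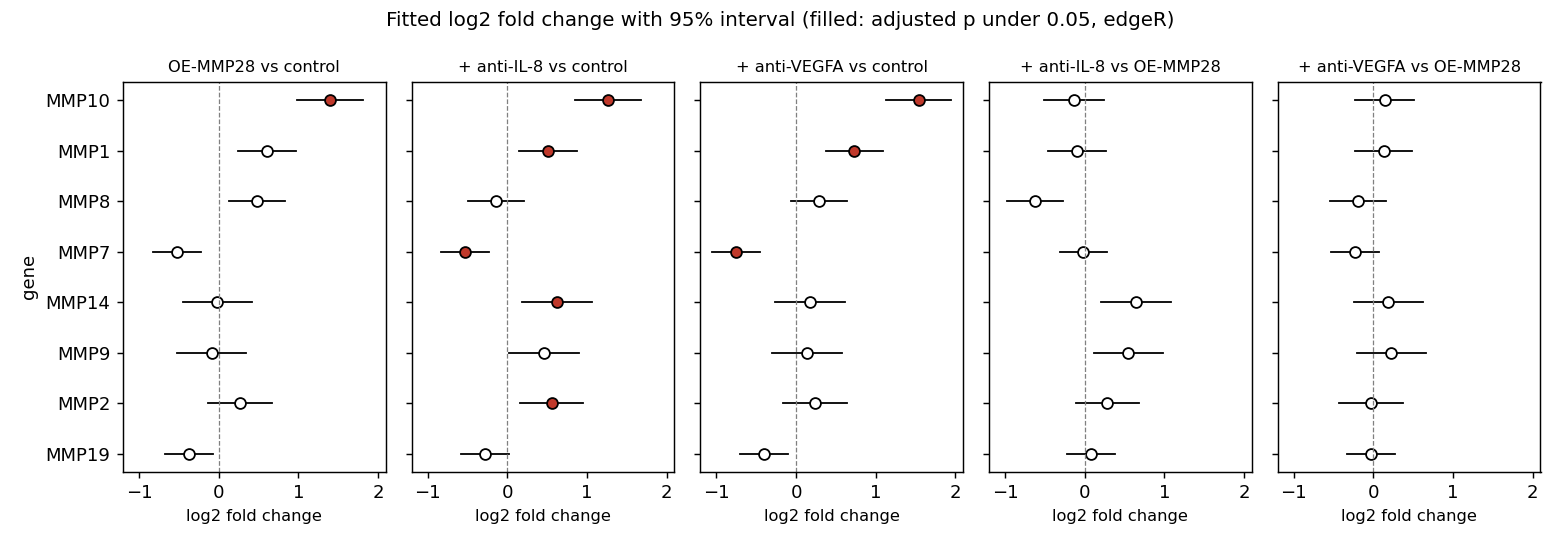
Fitted log2 fold change (horizontal axis) of the 8 tested members in 5 comparisons, with 95% intervals; filled points have an adjusted p under 0.05 by edgeR. MMP10 is filled and above 1 in the 3 panels against control, and no member is filled in the 2 panels against OE-MMP28.

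Across the chromosome 11 stretch the differences from control did not run in 1 direction along the chromosome. In OE-MMP28, MMP7 at one end was at -0.52, while MMP8, MMP10, MMP1 and MMP3 were at 0.48, 1.40, 0.61 and 0.35 on the log2 scale, of which MMP10 alone was called. Of the 8 tested genes within 1 Mb that are not members, 1 was called in OE-MMP28, against 3.16% of all genes. It was TMEM123, the nearest tested gene to MMP7 (log2 fold change -0.78, SE 0.13, edgeR adjusted p = 0.0014). TMEM123 encodes a membrane protein and was also lower against control with anti-IL-8 (-1.22, SE 0.13, adjusted p = 7.2e-06) and anti-VEGFA (-0.83, SE 0.13, adjusted p = 5.4e-04). BIRC2 and BIRC3, which encode apoptosis inhibitors, were at -0.07 and 0.06 in OE-MMP28. YAP1, BIRC3 and BIRC2 were called lower against control with anti-IL-8 (-0.49, -0.61 and -0.69).

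**Figure D4:**
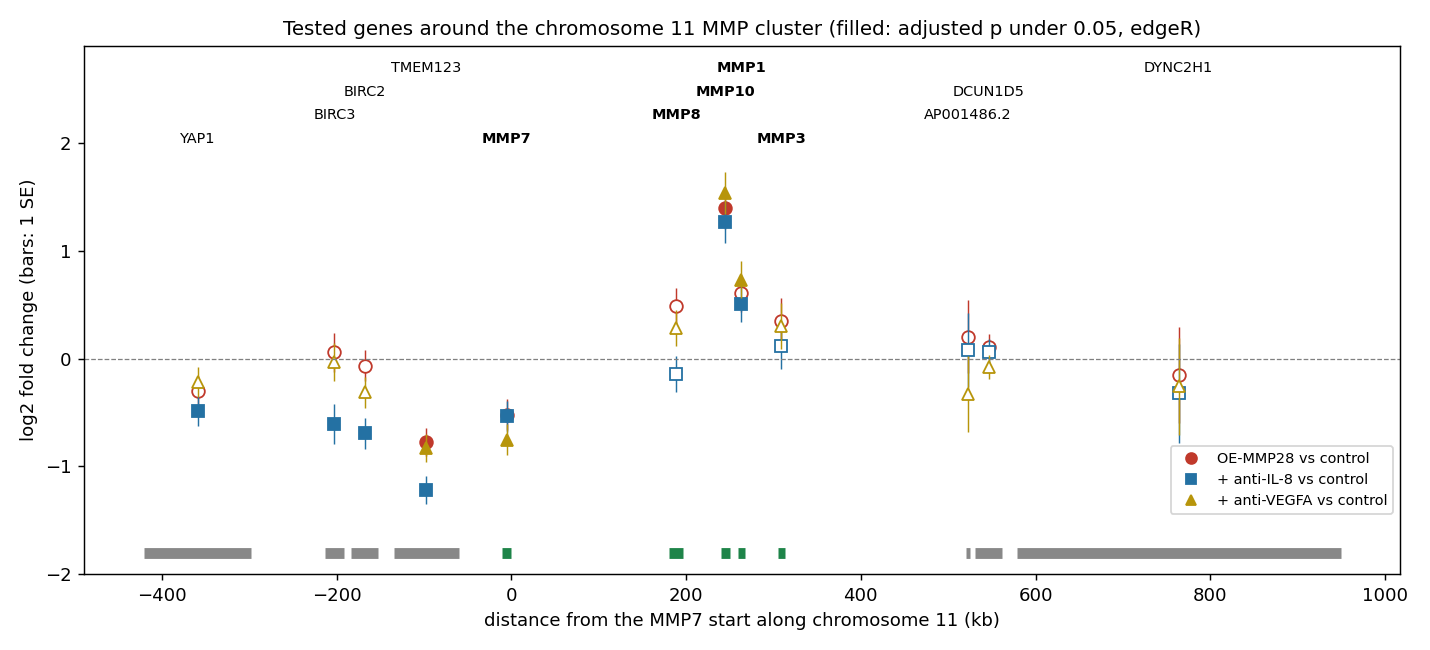
Log2 fold change against control (vertical axis, bars 1 SE) of the tested genes around the MMP cluster, placed by distance in kb from the MMP7 start; green bars mark MMP genes, grey bars other genes, and filled symbols an adjusted p under 0.05. MMP7 and TMEM123 lie below 0 in all 3 groups and MMP10 and MMP1 above 0, while MMP8 is above 0 in OE-MMP28 and anti-VEGFA and below 0 with anti-IL-8.

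Membrane-bound MMP14 and the gelatinases MMP9 and MMP2 did not pass the test between OE-MMP28 and control. MMP14 had 3226, 3044 and 2910 CPM in control and 3304, 2240 and 3532 CPM in OE-MMP28 (log2 fold change -0.02, SE 0.21, 95% interval -0.45 to 0.42, edgeR adjusted p = 0.98). MMP9 had 584, 466 and 497 CPM against 475, 336 and 643 CPM (-0.09, 95% interval -0.52 to 0.35, edgeR adjusted p = 0.90), and MMP2 had 15.4, 14.4 and 13.7 CPM against 18.0, 13.0 and 21.6 CPM (0.27, 95% interval -0.13 to 0.67, edgeR adjusted p = 0.57). OE-MMP28 replicate 2 was the lowest of its group for each of these genes, and the group overlapped control for each.

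With anti-IL-8 these members stood at their highest. MMP14 had 5076, 3662 and 5384 CPM, above every OE-MMP28 and control library (against OE-MMP28 log2 fold change 0.64, SE 0.21, edgeR adjusted p = 0.074), and it rose against control (0.62, SE 0.21, edgeR adjusted p = 0.043). MMP2 had 23.1, 17.0 and 23.9 CPM and rose against control by the same test (0.55, SE 0.19, edgeR adjusted p = 0.047). MMP9 had 711, 567 and 849 CPM, which overlapped both groups (against control 0.46, SE 0.21, adjusted p = 0.12). With anti-VEGFA, MMP14 had 4368, 2446 and 3519 CPM, MMP9 653, 444 and 604 CPM and MMP2 21.1, 14.5 and 15.9 CPM, overlapping control for each. The MMP14 and MMP2 calls with anti-IL-8 were lost in 6 of the 12 fits that left out 1 library, namely any control library, OE-MMP28 replicate 1, or anti-IL-8 replicate 1 or 3, where the adjusted p was up to 0.14 for MMP14 and 0.15 for MMP2. Both calls were also lost with library totals or FPKM, and that of MMP2 with voom (adjusted p = 0.056).

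The levels of these genes moved with a GC slope fitted to each library. The transcripts of MMP9, MMP14 and MMP2 have 62.4%, 58.9% and 56.5% GC, and those of MMP7, MMP8, MMP1 and MMP10 have 41.1% to 43.7%. The GC slope of a library, the change in log2 level per 10% of transcript GC over all tested genes, was -0.137 to -0.0636 in control and 0.0877 to 0.221 with anti-IL-8. It was -0.0939, -0.354 and 0.0129 in OE-MMP28 and 0.126, 0.0713 and 0.0489 with anti-VEGFA. Over the 12 libraries the Pearson r of log2 level with the slope was 0.862 for MMP9, 0.818 for MMP14 and 0.774 for MMP2. For the other tested members it was -0.444 to 0.313. As the slope was fitted over all tested genes, these members included, GC-rich genes tend to give a positive r. Other genes of like GC content were not compared. OE-MMP28 replicate 2 had the lowest slope (-0.354) and the lowest MMP14, MMP9 and MMP2 of all 12 libraries, and anti-IL-8 replicate 3 had the highest slope (0.221) and the highest level of each. Not every library followed this: anti-VEGFA replicate 2, at 0.0713, had MMP14 (2446 CPM) and MMP9 (444 CPM) below every control library. With the GC and length offsets the log2 fold change of anti-IL-8 against control was 0.34 for MMP14 (edgeR adjusted p = 0.18) and 0.33 for MMP2 (edgeR adjusted p = 0.13), and neither was called. Slopes differed between the groups, so the offsets can also remove differences between groups. What lies behind the slopes was not tested. MMP10 was 1.32, 1.36 and 1.65 above control on the log2 scale in OE-MMP28, anti-IL-8 and anti-VEGFA with these offsets, and was called in each.

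**Figure D5:**
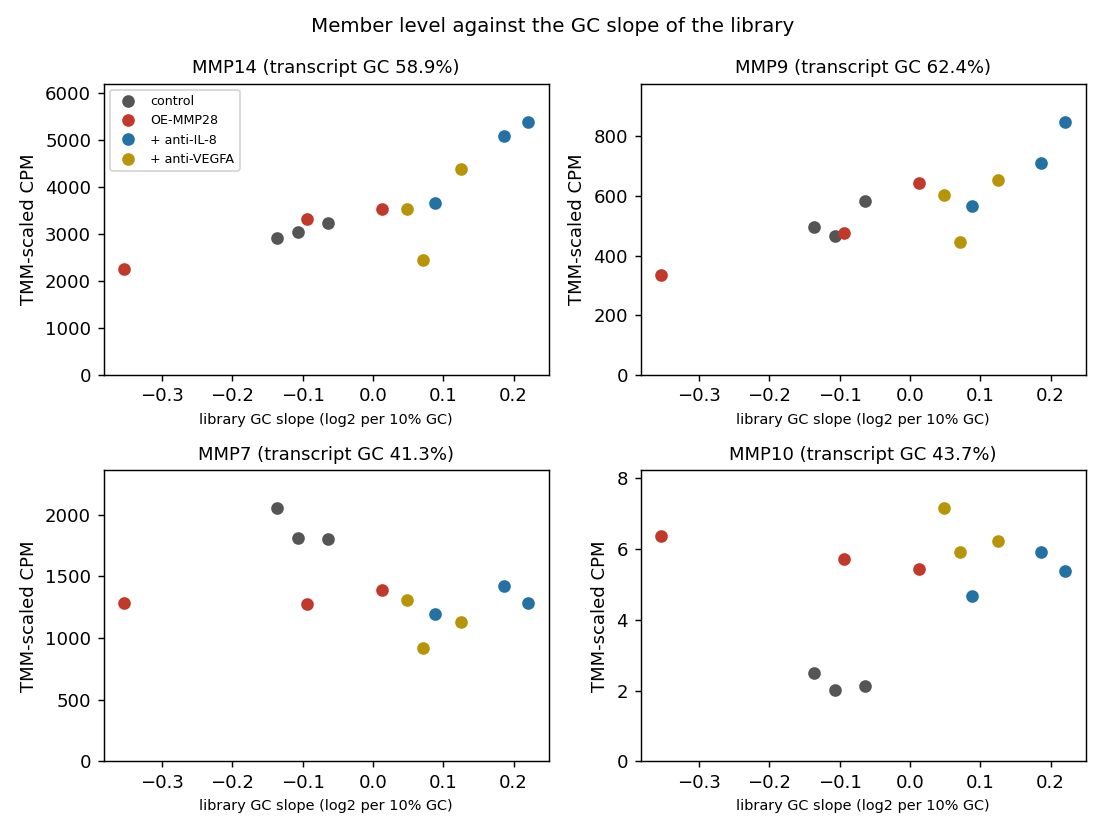
TMM-scaled CPM (vertical axis, from 0) of MMP14, MMP9, MMP7 and MMP10 against the GC slope of each library (horizontal axis, log2 per 10% GC), one point per library coloured by group. The highest MMP14 and MMP9 points are anti-IL-8 replicate 3 at a slope of 0.221 and the lowest are OE-MMP28 replicate 2 at -0.354, while MMP10 in that library, at 6.37 CPM, is with the other OE-MMP28 points.

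MMP19, a soluble member made by many tissues, had 32.0, 40.6 and 46.7 CPM in control and 32.2, 30.1 and 30.1 CPM in OE-MMP28. Its log2 fold change was -0.37 (SE 0.14, edgeR adjusted p = 0.22), and control replicate 1 overlapped OE-MMP28. With anti-IL-8 it had 31.4 to 34.3 CPM and with anti-VEGFA 26.2 to 33.5 CPM, so that the 2 higher control libraries were above all others. Against control the anti-VEGFA difference was -0.40 (SE 0.14, edgeR adjusted p = 0.078). It passed the threshold with the GC and length offsets (-0.40, edgeR adjusted p = 0.042) and without control replicate 1 (-0.54, edgeR adjusted p = 0.045).

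Against OE-MMP28 alone, the comparison that asks what the antibodies change, 0 of 8 members were called with anti-IL-8, as was 0% of all genes (edgeR, adjusted p under 0.05). At an unadjusted p under 0.05 there were 3, MMP8 lower and MMP14 and MMP9 higher, against 29.3% of all genes. DESeq2 called those same 3, among 2122 of 16046 genes called, and voom called 0 members and 0 genes in all. Without OE-MMP28 replicate 3 edgeR called the 3 as well, among 4203 of 16530 genes called. It called MMP8 and MMP14, among 1166 of 16475 genes called, when anti-VEGFA replicate 2, which contributes to the shared spread, was left out. With anti-VEGFA, 0 of 8 members were called by edgeR, DESeq2 or voom. Over all genes, edgeR called 0.343%, DESeq2 429 of 16046 genes and voom 70. By edgeR 0 members had an unadjusted p under 0.05, against 18.8% of all genes. The largest difference was that of MMP7 (log2 fold change -0.23, 95% interval -0.53 to 0.07, edgeR adjusted p = 0.38), and MMP10 was at 0.14 (95% interval -0.23 to 0.51). Without both libraries of the highest mitochondrial share MMP9 was called higher with anti-VEGFA (0.62, edgeR adjusted p = 0.041). In that fit 1315 of 16400 genes were called in this comparison.

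Against control, 5 of 8 members were called with anti-IL-8 (MMP1, MMP2, MMP10 and MMP14 higher, MMP7 lower), where 20.7% of all genes were called (9.77% higher and 10.9% lower), and 3 of 8 with anti-VEGFA (MMP1 and MMP10 higher, MMP7 lower), where 11% were (5.6% higher and 5.37% lower). Between the antibodies themselves 0 of 8 members were called by edgeR, DESeq2 or voom. Here edgeR called 0.199% of all genes, DESeq2 245 of 16046 genes and voom 31. At an unadjusted p under 0.05, which 15% of all genes met, edgeR gave MMP8 higher (log2 fold change 0.43, adjusted p = 0.25) and MMP14 lower (-0.45, adjusted p = 0.32) with anti-VEGFA than with anti-IL-8.

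The order of the leading transcripts differed between control and most other libraries. The ratio of MMP14 to MMP7 in FPKM was 0.933, 0.877 and 0.738 in control, where MMP7 was the more abundant in each library. It was 1.35, 0.910 and 1.32 in OE-MMP28. With the antibodies it was 1.86, 1.60 and 2.18 for anti-IL-8 and 2.02, 1.38 and 1.40 for anti-VEGFA. OE-MMP28 replicate 2, the library of lowest GC slope, was the one library outside control in which MMP7 led, and its ratio was within the range of control.

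Among the inhibitors, SERPINB2 (PAI-2) fell from 37.8, 30.9 and 42.9 CPM in control to 18.0, 17.6 and 12.7 CPM in OE-MMP28, with no overlap (log2 fold change -1.20, SE 0.22, edgeR adjusted p = 0.0030). It blocks activators of plasmin, a protease that can activate MMP proenzymes. SERPINB2 was also called lower against control with anti-IL-8 (-1.71, SE 0.23, edgeR adjusted p = 7.7e-05) and with anti-VEGFA (0.519 times the control level, edgeR adjusted p = 0.011). It shares 19.9% of its exon bases with a gene of the same strand.

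TIMP1, the most abundant TIMP, had 7174, 5973 and 7463 CPM in control and 3722, 3060 and 5755 CPM in OE-MMP28, with no overlap (log2 fold change -0.72, SE 0.21, edgeR adjusted p = 0.074). It fell against control with anti-IL-8 (-0.62, SE 0.21, edgeR adjusted p = 0.042) and was at -0.53 with anti-VEGFA (adjusted p = 0.11). TIMP2, which takes part in the activation of MMP2 by MMP14, was at 0.02 in OE-MMP28 (95% interval -0.24 to 0.29), and TIMP3, which is bound in the matrix, was at 0.05 (95% interval -0.29 to 0.39).

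Of 10 tested activators and cofactors (median log2 fold change -0.05), 1 was called in OE-MMP28, against 3.16% of all genes: HPSE (heparanase, which cuts heparan sulfate) fell from 5.24 to 6.23 CPM in control to 2.86 to 3.30 CPM (log2 fold change -0.95, SE 0.21, edgeR adjusted p = 0.017), and it was lower with both antibodies too (-0.99 and -1.09). With anti-IL-8, PLAUR (the urokinase receptor, 0.61) and BSG (an inducer of MMPs, 0.71) rose against control. Of 4 other MMPs tested (median 0.28), 0 were called in OE-MMP28 by edgeR, also at an unadjusted p under 0.05. The membrane-anchored MMP17 rose against control with anti-IL-8 (log2 fold change 0.80, edgeR adjusted p = 0.0062) and anti-VEGFA (0.91, edgeR adjusted p = 0.0033), and MMP15, also in the membrane, rose with anti-IL-8 (0.65, edgeR adjusted p = 0.041).

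Of 11 ADAM and ADAMTS proteases, relatives that shed membrane proteins or cut proteoglycans (median -0.08), 0 were called in OE-MMP28 and 2 were lower at an unadjusted p under 0.05 by edgeR, which 14.5% of all genes met in either direction. Against control with anti-IL-8, where 10.9% of all genes were called lower and 9.77% higher, 5 were lower (ADAM9 -0.57, ADAM10 -0.39, ADAM12 -1.13, and ADAM17 -0.68, with ADAMTS1 at 0.499 times control) and ADAM8 was higher (0.79), and ADAM8 was also higher with anti-VEGFA (0.99). Of 17 matrix substrates (median -0.11), 0 were called in OE-MMP28 by edgeR, where 5 had an unadjusted p under 0.05. FN1 (fibronectin) was at -0.57 there (edgeR adjusted p = 0.11) and fell against control with anti-IL-8 (-0.65, edgeR adjusted p = 0.019) and anti-VEGFA (-0.66, edgeR adjusted p = 0.025). With anti-IL-8, THBS1 (thrombospondin 1, -1.50) and LAMB1 (a laminin chain, -0.49) fell and COL4A2 (a basement membrane collagen chain, 0.52) rose against control. For all pathway genes the calls are those of the main fit. The GC and length offsets and the omission of single libraries were followed for the members only. OE-MMP28 replicate 2, of lowest GC slope, had the highest ADAM9, ADAM10 and ADAM17 (263, 351 and 238 CPM) of all libraries and the lowest BSG (444 CPM). Its ADAM12 and ADAMTS1 (2.10 and 32.9 CPM) were not the highest.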

How the data were processed

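Total RNA of THP-1 cells was sequenced in 12 libraries, which were grouped by their titles into 4 groups of 3. The authors aligned reads with HISAT2 2.0.5 and counted them per gene with featureCounts 1.5.0-p3, per the labels. The deposited table gives read counts for 58735 genes, and FPKM values that the authors computed. Its coordinates matched the GENCODE 29 annotation. Its 30 columns of the authors' own comparisons (fold changes and p-values) were not used.

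Counts were analysed in R 4.3.3 with edgeR 4.0.16 (filterByExpr, which left 16046 genes, TMM, quasi-likelihood fit of all groups, 1 coefficient a group, prior count 0.125, Benjamini-Hochberg within a comparison, threshold 0.05). CPM and FPKM served for levels. Replicate numbers were not used as pairs in the main fit. Between groups, the deviations of same-numbered libraries correlated at -0.16 to 0.24 and those of differently numbered ones at -0.32 to 0.34. With 3 libraries a group this cannot exclude a pairing, and a fit with the replicate number as a block was an alternative. No libraries were duplicates. Alternatives used limma 3.58.1 (voom, and log2(FPKM + 1) or log2(FPKM + 0.1)), DESeq2 1.42.0, library totals, a filter of 10 counts in all libraries or none, fits of 2 groups, the replicate block, an unadjusted p and the omission of single libraries. A fit without 2 libraries and one with offsets for GC content and transcript length were chosen after seeing the data. Methods were tested on simulated data. Figures used Python 3.11.15 and matplotlib 3.10.9.

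All members were named. Pathway genes were named where called in OE-MMP28 or an antibody group, plus TIMP1, TIMP2, TIMP3 and MMP3, and for a member called in OE-MMP28 the 3 genes of highest correlation were named. A gene of the inhibitor list is not reported here. The members and lists were chosen with earlier results of these data known. Library depth bounds scarce transcripts such as MMP12.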

Additional observations from a re-analysis of the deposited data

How the results depend on the processing

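MMP10 was called in OE-MMP28, anti-IL-8 and anti-VEGFA against control under all 11 alternatives of the fit and in all 12 fits without 1 library (OE-MMP28 log2 fold change 0.93 to 1.45 and 1.33 to 1.49). Counts of called members depended more on the settings. In OE-MMP28 against control the count was 1, and 3 with DESeq2, without a filter, with fits of 2 groups, with the replicate block and without OE-MMP28 replicate 3 and anti-VEGFA replicate 2, in each case by adding MMP1 and MMP7. It was 2 with voom, library totals or GC and length offsets, which add MMP7, 5 at an unadjusted p, and 1 to 3 when 1 library was left out (3 without anti-VEGFA replicate 2 or 3). Over all genes 507 of 16046 were called here, 665 with DESeq2, 525 with voom, 497 with library totals and 949 with the offsets. The number was 707 of 34435 without a filter, 495 of 15254 with 2 groups, 514 with the block and 2332 at an unadjusted p. It was 648 of 16400 without the 2 libraries named above, and 295 to 641 when 1 library was left out. In anti-IL-8 against OE-MMP28 the member count was 0, and 3 with DESeq2, without a filter, at an unadjusted p and without those 2 libraries, 2 with the replicate block (MMP9 and MMP14), and 0 to 3 when 1 library was left out. Over all genes it was 0 of 16046, 2122 with DESeq2, 1438 of 34435 without a filter and 4700 at an unadjusted p. It was 5176 of 16400 without those 2 libraries, 795 with the block and 0 to 4203 when 1 library was left out. In anti-VEGFA against OE-MMP28 the member count was 0, and 1 without those 2 libraries. The genes called in these fits were 55 of 16046 and 1315 of 16400. DESeq2 called 429 genes here, and 8 to 1498 were called when 1 library was left out, where the member count stayed at 0. In anti-IL-8 against control the member count was 5, and 2 with log2(FPKM + 1), log2(FPKM + 0.1), library totals or the offsets, 4 to 6 with the others, and 1 to 6 when 1 library was left out. Over all genes 3317 of 16046 were called, against 2754, 2740, 2943 and 2163 in those settings, in that order. The number was 3317 to 6039 with the others, and 1313 to 4309 when 1 library was left out. In anti-VEGFA against control the member count was 3, with 3 to 4 over the other settings (4 with the offsets or at an unadjusted p, with MMP19 lower) and 2 to 4 when 1 library was left out. Over all genes 1760 of 16046 were called, 1907 with the offsets and 4325 at an unadjusted p. The number was 662 to 2582 when 1 library was left out. Between the antibodies the member count was 0, and 2 at an unadjusted p, where 32 and 2409 of 16046 genes were called. MMP9 became a call in anti-IL-8 against control with the replicate block (0.44, adjusted p = 0.048), without a filter (0.026), with fits of 2 groups (0.0051) and without those 2 libraries (0.020). The cause of these changes was not tested.

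Signs turned only for differences that were not called in the main fit. With the offsets they were 0.0073 for MMP14 in OE-MMP28 against control, 0.096 for MMP1, 0.23 for MMP7 and 0.041 for MMP10 in anti-IL-8 against OE-MMP28, -0.051 for MMP9 and -0.032 for MMP14 in anti-VEGFA against OE-MMP28, 0.12 for MMP8 in anti-IL-8 against control, and -0.16 for MMP9 and -0.025 for MMP14 in anti-VEGFA against control. With 2 groups MMP7 in anti-IL-8 against OE-MMP28 was 0.0010. With 1 library left out, or the 2 above, the ranges that crossed 0 were -0.35 to 0.12 for MMP9 and -0.14 to 0.16 for MMP14 in OE-MMP28 against control, -0.054 to 0.053 for MMP7 in anti-IL-8 against OE-MMP28, -0.078 to 0.34 for MMP1, -0.21 to 0.24 for MMP2, -0.021 to 0.50 for MMP14 and -0.12 to 0.060 for MMP19 in anti-VEGFA against OE-MMP28, and -0.036 to 0.38 for MMP14 in anti-VEGFA against control. A fit that left out 1 library used the spread shared by all groups.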
